A study of Rattus norvegicus with 8 samples.

Results

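Serpins are a family of proteins with a common fold, most of which trap and inactivate serine proteases. The family was represented on the arrays by 86 of 46883 probes, chosen because their gene name begins with Serpin, and these carried 40 of 25512 gene names. They were measured in liver RNA of male Sprague Dawley rats, an outbred laboratory strain. One group of 4 samples, called high-fat here, came from rats kept 12 weeks on a diet of 60% fat, and the control group of 4 from rats on a normal diet for the same 12 weeks. The labels give a weight of 180 to 200 g for both groups and do not state when it was taken. Whether every sample came from an animal of its own is not stated, and p-values therefore reflect only how far these samples spread. The comparison asks which serpin transcripts differ in level between high-fat and control livers.

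An inhibitory serpin presents a reactive centre loop as bait. When the target protease cuts the loop, the serpin changes shape and carries the protease with it in an inactive complex. Hepatocytes secrete many members of clades A, C, D and F into the blood, where they restrain elastase, thrombin, factor Xa and plasmin, and a few members have no known protease target and carry hormones. The remaining clades include serpins that act inside cells (clade B), inhibitors that act near cell surfaces (clade E), a complement inhibitor (clade G), a collagen chaperone (clade H) and neuroserpin (clade I).

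Clades A, C, D and F, taken from the letter in the gene symbol, held 17 genes and 36 probes, and the other clades held 23 genes and 50 probes. The largest clades were B with 16 genes and A with 13. Serping1, which encodes C1 inhibitor, is also secreted by the liver, but its letter places it with the other clades here. Levels are given as normalized log2 intensity, where 0 is an array's 75th percentile, taken over probes that stood well above background on all 8 arrays. Because probes differ in brightness, levels are compared between arrays and not between genes. A probe was tested if at least 4 of the 8 arrays read it well above background, and a gene is represented by its brightest tested probe. In clades A, C, D and F, 15 of 17 genes and 31 of 36 probes were tested, and 14 genes had a probe well above background on all 8 arrays. In the other clades, 16 of 23 genes and 27 of 50 probes were tested, 9 genes had such a probe, and 6 had no probe above background on any array. The untested genes were Serpina12, Serpina1f, Serpinb10, Serpinb11, Serpinb13, Serpinb1b, Serpinb9e, Serpine3 and Serpini2. No member entered the test through 1 diet group only. Markers of hepatocytes, the main cell type of liver, were all 13 tested, 4 of them serpins. The log2 of their summed intensities, called the summed level below, was 9.73 to 10.08 in control and 9.77 to 10.04 in high-fat samples. Such a sum follows mostly the brightest markers of a list and does not describe each of them.

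The sequences of the probes whose values carry the comparison follow, each written 5′ to 3′. Coordinates are those of the array files on the rn4 rat genome build, and the probes with a name beginning GT have no mapped position there. Serpina7 and Serpina6 are shown because their probes gave the lowest adjusted p-values of the family. Serpina3k and Serpinb1a are shown because their probes overlap, so that their agreement is partly the agreement of a shared target. Capitals mark the run of bases shared by the 2 probes of a gene, 46 bases in Serpina3k and 37 in Serpinb1a. The Serpina7 and Serpina6 probe pairs share no run of 15 bases or more, so their agreement does not rest on such a shared stretch. The Serpina7 probes carry different transcript identifiers, and neither matched a gene in GRCr8 RefSeq. That they read the same transcript is taken from the gene name.
Serpina7 probe A_43_P16264, chrX:126739867-126740638, minus strand: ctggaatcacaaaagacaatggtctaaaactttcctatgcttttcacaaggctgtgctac
Serpina7 probe GT_Rn_GE_00247481: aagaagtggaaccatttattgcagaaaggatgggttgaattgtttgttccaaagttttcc
Serpina6 probe A_44_P121347, chr6:127918757-127918816, minus strand: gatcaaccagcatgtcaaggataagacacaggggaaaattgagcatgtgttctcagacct
Serpina6 probe GT_Rn_GE_00029287: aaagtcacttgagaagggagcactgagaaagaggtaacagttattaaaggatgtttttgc
Serpina3k probe A_64_P110234, chr6:128379719-128379778, minus strand: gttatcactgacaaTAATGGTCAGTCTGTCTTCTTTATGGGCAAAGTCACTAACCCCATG
Serpina3k probe GT_Rn_GE_00165621: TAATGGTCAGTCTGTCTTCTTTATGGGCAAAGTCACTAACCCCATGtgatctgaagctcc
Serpinb1a probe A_64_P023472, chr17:37958921-37958980, plus strand: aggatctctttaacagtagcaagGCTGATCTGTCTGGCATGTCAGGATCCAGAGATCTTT
Serpinb1a probe A_64_P141420, chr17:37958944-37959003, plus strand: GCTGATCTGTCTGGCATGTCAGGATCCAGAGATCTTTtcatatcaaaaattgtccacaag

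No serpin passed an adjusted p of 0.05 in limma's test (Benjamini-Hochberg adjustment, all tested probes together), 0 of 31 genes and 0 of 58 probes, against 0.877% of all 18587 tested genes and 0.907% of all 31535 tested probes. The thyroxine carrier Serpina7 was lower on high-fat and the corticosteroid carrier Serpina6 higher, and these 2 hormone carriers had the largest differences of clades A, C, D and F among brightest probes. At an unadjusted p under 0.05 there were 6 serpin genes of 31 (19.4%), against 15.6% of all genes, with 4 of 15 in clades A, C, D and F and 2 of 16 in the other clades. In 5 of the 31 genes (16.1%) the groups did not overlap, against 11.1% of all genes. Of these, Serpina6, Serpina3k and Serpine2 were higher on high-fat, where 4.88% of all genes were, and Serpina7 and Serpina10 were lower, where 6.24% of all genes were. Only Serpina7 and Serpinb1a differed by a log2 size of at least 0.5, 6.45% of the serpins against 16.5% of all genes. Serpina6 (0.4996), Serpina3m (0.49), Serpine2 (0.48) and Serpinb8 (-0.48) lay just under that size. The median log2 change was 0.14 in clades A, C, D and F and 0.02 in the other clades, beside 0.0040 over all genes, and the value was above 0 in 9 of 15 and 9 of 16 genes, against 50.6% of all genes. Over the whole family these shares lie near those of all genes, apart from the smaller share of differences of at least 0.5. That share depends on the cut, and the median size of change was 0.25 in the serpins and 0.21 over all genes.

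**Figure D1:**
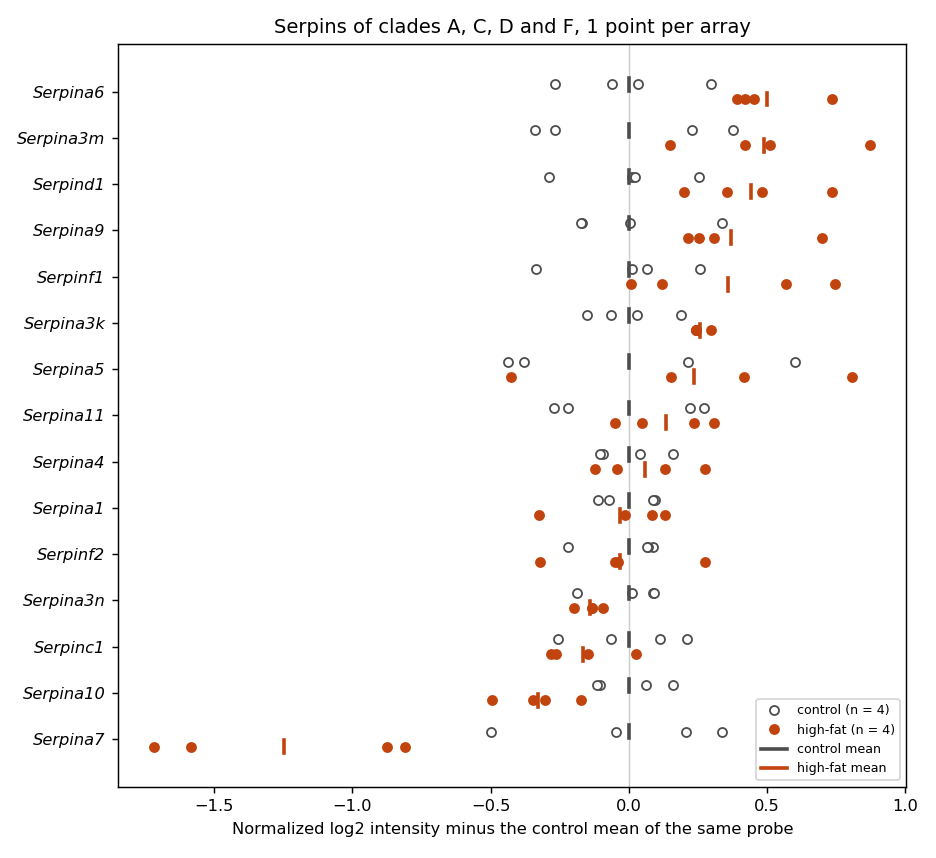
Normalized log2 intensity of the brightest tested probe of each of the 15 tested genes of clades A, C, D and F, with the control mean of the same probe subtracted (x axis), for each gene (y axis). Open points are the 4 control arrays, filled points the 4 high-fat arrays and bars the group means; Serpina7 lies at -1.25 and Serpina6 at 0.50, both without overlap between the groups.

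Serpina7 encodes thyroxine-binding globulin, a non-inhibitory serpin that carries thyroid hormone in blood. Its brightest probe read 1.86, 1.16, 1.99 and 1.61 in control replicates 1 to 4 and 0.78, 0.85, 0.07 and -0.06 in high-fat replicates 1 to 4. All 4 high-fat arrays lay below all 4 controls, and high-fat replicates 3 and 4 lay below high-fat replicates 1 and 2. The mean went from 1.66 ± 0.37 (SD, n = 4) to 0.41 ± 0.47 (SD, n = 4), a log2 change of -1.25 (95% interval -1.86 to -0.63), or 2.37-fold lower, with an adjusted p of 0.078 by limma. The other probe, which shares no sequence run with it, read 1.26, 0.64, 1.34 and 0.81 in controls and 0.22, 0.15, -0.85 and -0.64 on high-fat. Again no high-fat array reached the lowest control, and the log2 change was -1.29 (95% interval -1.95 to -0.63, limma adjusted p = 0.083). Both probes passed the threshold when normexp background correction was used (adjusted p = 0.045 and adjusted p = 0.036 in limma), when only probes well above background on all 8 arrays were tested (adjusted p = 0.042 and adjusted p = 0.045), and with a trended, robust variance (adjusted p = 0.044 and adjusted p = 0.047). These were the only 3 of 22 alternatives in which the gene passed. They also called more genes over the whole array, 253, 331 and 335 against 163. Leaving out each array in turn gave log2 changes of -1.41 to -1.09 for the brightest probe, none of them past the threshold. Of the other proteins that carry thyroid hormone in blood, transthyretin (Ttr) had a log2 change of -0.06 and albumin (Alb) one of -0.09, with limma adjusted p of 0.91 and 0.84.

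Serpina6 encodes corticosteroid-binding globulin, the other hormone carrier of the family. Its brightest probe read 4.16, 3.59, 3.80 and 3.89 in control replicates 1 to 4 and 4.59, 4.25, 4.31 and 4.28 in high-fat replicates 1 to 4. Every high-fat array was above every control, with control replicate 1 the closest to them. The mean went from 3.86 ± 0.24 to 4.36 ± 0.16 (SD, n = 4 each), a log2 change of 0.50 (95% interval 0.14 to 0.86), or 1.41-fold, with an adjusted p of 0.19 by limma. The other probe, which shares no run with it, read -0.59, -0.57, -0.35 and 0.03 in controls and 0.92, 0.12, 1.01 and 0.51 on high-fat. Its groups did not overlap either, although control replicate 4 and high-fat replicate 2 lay close together. Its log2 change was 1.01 (95% interval 0.48 to 1.54, limma adjusted p = 0.090), and the probes agreed in direction and differed in size. That probe passed with normexp background correction (adjusted p = 0.030 in limma) and among probes well above background on all 8 arrays (adjusted p = 0.049). These were 2 of 21 alternatives fitted to the probe, and both called more genes over the whole array than the main fit.

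Serpina3k, Serpina3m and Serpina3n belong to 1 group, rodent relatives of the human inhibitor antichymotrypsin. Serpina3k encodes a plasma protein that binds kallikrein, and GRCr8 RefSeq names it Serpina3c. Its brightest probe read 5.64, 5.89, 5.55 and 5.73 in controls and 5.95, 5.95, 6.003 and 5.95 on high-fat, a log2 change of 0.26 (95% interval -0.02 to 0.53, limma adjusted p = 0.36). The high-fat arrays were tightly grouped just above the highest control. Its overlapping second probe had a log2 change of 0.39 (95% interval 0.10 to 0.68, limma adjusted p = 0.21), also with no overlap between the groups. Serpina3m read 4.72, 4.87, 4.22 and 4.15 in controls and 4.64, 4.91, 4.998 and 5.36 on high-fat, a log2 change of 0.49 (95% interval -0.02 to 0.99, limma adjusted p = 0.34). High-fat replicate 1 lay below 2 of the controls, so the groups overlapped, and its second probe had a log2 change of 0.67. Serpina3n, an acute phase protein, read 6.32, 6.25, 6.33 and 6.05 in controls and 6.10, 6.04, 6.14 and 6.10 on high-fat. Control replicate 4 lay among the high-fat arrays, and the log2 change was -0.14 (95% interval -0.41 to 0.13, limma adjusted p = 0.64).

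Among the serpins that restrain clotting and fibrinolysis, Serpind1 encodes heparin cofactor II, a thrombin inhibitor. It read 2.61, 2.85, 2.62 and 2.31 in controls and 2.80, 2.95, 3.08 and 3.33 on high-fat. Control replicate 2 exceeded high-fat replicate 1, and the log2 change was 0.44 (95% interval 0.06 to 0.83, limma adjusted p = 0.26), with 0.41 by its second probe. Serpina10 encodes the protein Z-dependent inhibitor of factor Xa, and its brightest probe read 4.26, 4.53, 4.43 and 4.25 in controls against 4.06, 4.19, 4.02 and 3.87 on high-fat. No high-fat array reached the lowest control, with high-fat replicate 2 the closest, and the log2 change was -0.33 (95% interval -0.63 to -0.03, limma adjusted p = 0.28). Its second probe had a log2 change of -0.16 with overlapping groups. Serpinc1 encodes antithrombin, which inhibits thrombin and factor Xa, and read 6.06, 5.79, 5.97 and 5.60 in controls and 5.59, 5.57, 5.71 and 5.88 on high-fat. The groups overlapped widely. The log2 change was -0.17 (95% interval -0.50 to 0.17, limma adjusted p = 0.65), and the second probe had the opposite sign, 0.26. Serpinf2, the plasmin inhibitor α2-antiplasmin, had a log2 change of -0.03 (95% interval -0.39 to 0.33) and 0.11 by its second probe. Serpina5 encodes protein C inhibitor and read -1.67, -2.05, -2.71 and -2.65 in controls and -2.69, -1.85, -2.12 and -1.46 on high-fat. Each group spread over more than a log2 unit, and the change of 0.24 had an interval of -0.49 to 0.96.

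The remaining clade A and F members overlapped between the diets. Serpina1 encodes α1-antitrypsin, the main plasma inhibitor of neutrophil elastase, and read 6.25, 6.46, 6.45 and 6.29 in controls and 6.49, 6.03, 6.44 and 6.35 on high-fat. High-fat replicates 1 and 2 were the highest and the lowest of all 8 arrays. The log2 change was -0.03 (95% interval -0.35 to 0.29, limma adjusted p = 0.95), and the second probe gave 0.06. Serpina4, named kallistatin in human, had a log2 change of 0.06 (95% interval -0.25 to 0.37). Serpinf1 encodes pigment epithelium-derived factor, a non-inhibitory member, and had a change of 0.36 (95% interval -0.11 to 0.84), with 0.31 by its second probe. Serpina9, known from germinal centre B cells in human, was dim, between -7.06 and -6.19 on the 8 arrays, and had a change of 0.37 (95% interval -0.02 to 0.76). Serpina11 had 4 tested probes, of which 3 gave changes of 0.10 to 0.14 and the dimmest gave -0.46. Among genes of clades A, C, D and F with several tested probes, all probes had 1 sign in 10 of 14 genes, and the median spread between the probes of a gene was 0.14.

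**Figure D2:**
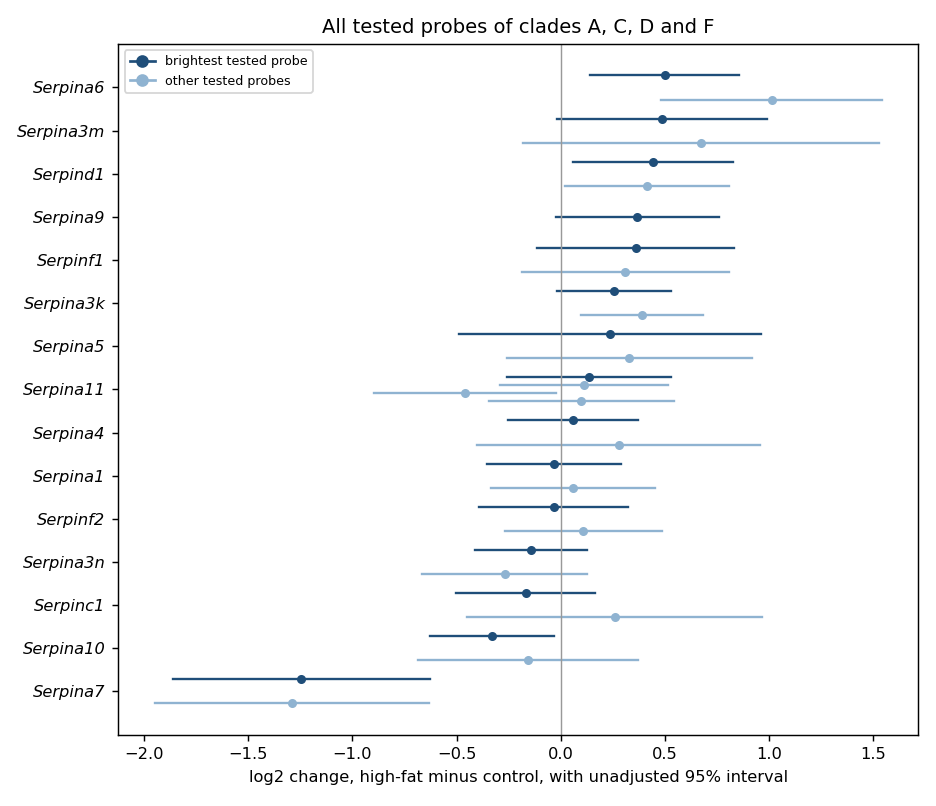
Log2 change from control to high-fat (x axis) with its unadjusted 95% interval for each of the 31 tested probes of clades A, C, D and F, by gene (y axis). Dark marks are the brightest probe of a gene and pale marks the others; both Serpina7 probes lie between -1.29 and -1.25 with intervals below 0, and the Serpina6 probes lie at 0.50 and 1.01 with intervals above 0.

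On chromosome 6, 12 clade A genes with a mapped probe lie in a cluster of 581.5 kb (rn4, 127887685 to 128469256), in the order Serpina10, Serpina6, Serpina1f, Serpina1, Serpina11, Serpina9, Serpina12, Serpina4, Serpina5, Serpina3m, Serpina3k and Serpina3n. Of the 10 tested, 7 had a log2 change above 0 and 3 one below 0. Neighbours differed in sign at the start of the cluster, where Serpina10 had a change of -0.33 and Serpina6 one of 0.50. Serpina7 lies outside the cluster, on chromosome X.

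**Figure D3:**
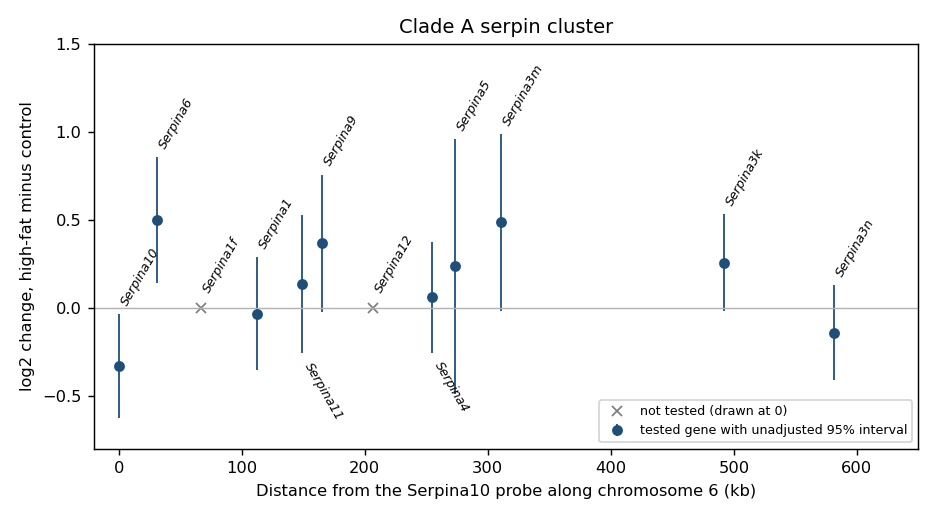
Log2 change from control to high-fat (y axis) of the clade A genes on chromosome 6 against distance from the Serpina10 probe in kb (x axis), with unadjusted 95% intervals. Of the 10 tested genes, 7 lie above 0 and 3 below, and crosses at 0 mark Serpina1f and Serpina12, which were not tested.

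In the other clades, Serpine2 was the gene whose groups did not overlap. It encodes protease nexin-1, which inhibits thrombin and plasminogen activators near cell surfaces. Its brightest probe read -3.55, -3.89, -3.90 and -3.58 in controls and -3.04, -3.25, -3.44 and -3.25 on high-fat. High-fat replicate 3 came nearest to the controls. The mean went from -3.73 ± 0.19 to -3.24 ± 0.16 (SD, n = 4 each), a log2 change of 0.48 (95% interval 0.15 to 0.82), or 1.40-fold, with an adjusted p of 0.17 by limma. Its second probe had a change of 0.44 (limma adjusted p = 0.29) and overlapping groups. Stellate cells and fibroblasts can express Serpine2. The summed level of 8 markers of these cells was 1.35 to 1.77 in control and 1.89 to 2.50 in high-fat samples. Lrat and Reln were the 2 of them that rose, as did 0.35% of all genes. The mean level of Lrat was -9.06 in control and -1.87 in high-fat samples. The control level is so dim that Lrat may have been tested through the high-fat arrays only, and its rise is given no weight here. The summed level includes Lrat. The list did not move together, with 4 of 8 changes above 0, a median of 0.04, and Des at -0.70 and Acta2 at -0.52 (limma adjusted p = 0.13 and adjusted p = 0.19), both lower without overlap. Their part in the Serpine2 values was not tested, and in bulk liver fewer cells of a type and less RNA per cell cannot be told apart.

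Serpinh1 encodes Hsp47, the chaperone of procollagen, and had a change of 0.25 (95% interval -0.07 to 0.58), with 0.08 (95% interval -0.61 to 0.78) by its second probe. The 9 genes of its collagen clients and of collagen hydroxylation had a median change of 0.22 with 6 above 0, and none of them passed the test. Serping1, the inhibitor of the complement proteases C1r and C1s, had a change of 0.03 (95% interval -0.27 to 0.34). Serpini1, neuroserpin, had a change of -0.14 (95% interval -0.61 to 0.33).

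Clade B serpins stay mostly inside cells, and many protect leukocytes and epithelia from their own granule proteases. Serpinb1a encodes an inhibitor of neutrophil elastase and cathepsin G that is abundant in leukocytes. It read -2.31, -3.12, -2.59 and -2.31 in controls and -3.59, -3.18, -2.71 and -3.16 on high-fat. Only control replicate 2 lay within the high-fat range, and the log2 change was -0.58 (95% interval -1.13 to -0.02, limma adjusted p = 0.31). The probe overlapping it gave -0.40 and a separate probe gave -0.68 (95% interval -1.19 to -0.17, limma adjusted p = 0.20). Of 9 tested macrophage markers none passed, all 9 had a change below 0, and their summed level was 5.57 to 6.01 in control and 5.06 to 5.63 in high-fat samples. For 4 tested of 7 neutrophil markers it was 0.67 to 1.46 and 0.06 to 1.77, with Elane, Mpo and Ngp not above background on enough arrays to be tested. For 7 lymphocyte markers, of which Cd3g fell, as did 0.527% of all genes, it was -0.96 to -0.31 and -1.87 to -1.08. Their part in the Serpinb1a values was not tested.

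The other tested clade B genes had log2 changes from -0.48 to 0.37, all with overlapping groups and intervals that include 0. Serpinb8, an inhibitor of furin, had the lowest of these, -0.48 (95% interval -1.63 to 0.66), where high-fat replicates 1 to 3 read -3.91 to -3.84 and high-fat replicate 4 read -5.90. Another of its probes gave -0.02, and its dimmest gave -0.64 (95% interval -1.95 to 0.67). Serpinb9, an inhibitor of granzyme B, had the highest, 0.37 (95% interval -0.35 to 1.08). Serpinb3 had a change of -0.44, Serpinb3a 0.27, Serpinb6a 0.22, Serpinb5 0.18 and Serpinb6b 0.09. Serpinb2, Serpinb12 and Serpinb7 had changes of 0.01, -0.02 and -0.05. All probes had 1 sign in 9 of 9 genes of the other clades with several tested probes, with a median spread of 0.17. The separate Serpinb1a probe, at -0.68, shares a run of 20 bases with an untested Serpinb1b probe, so its value is uncertain as a reading of 1 gene.

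**Figure D4:**
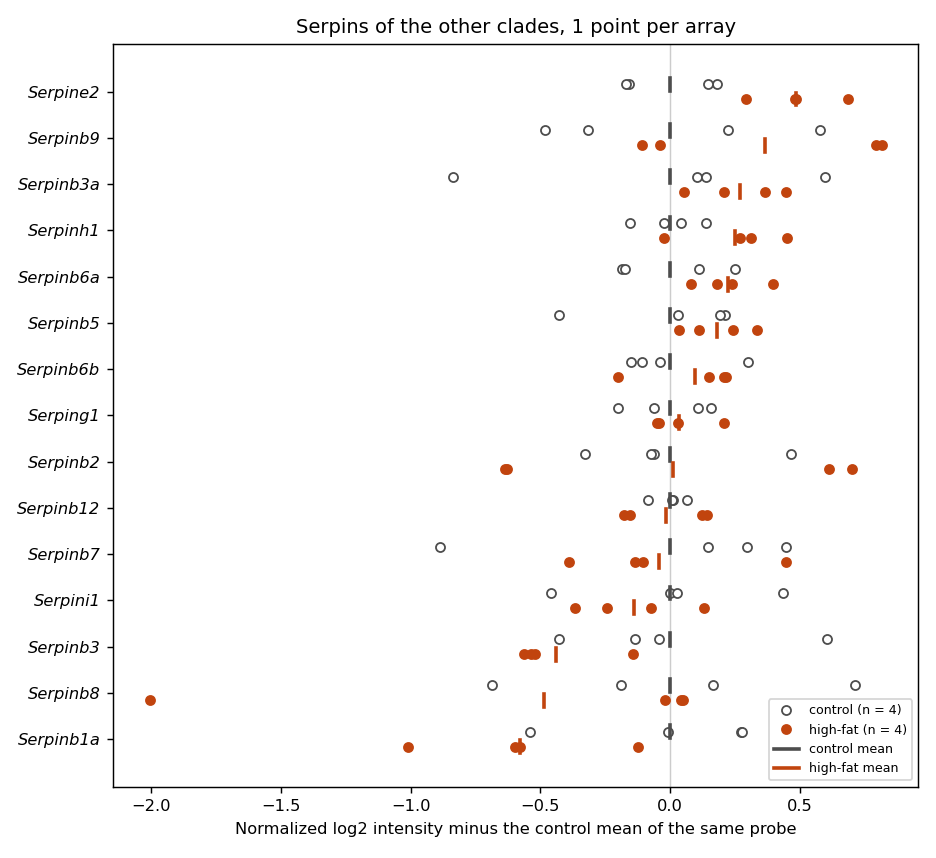
Normalized log2 intensity of the brightest tested probe of 15 tested genes of the other clades, with the control mean of the same probe subtracted (x axis), for each gene (y axis). Open points are the 4 control arrays, filled points the 4 high-fat arrays and bars the group means; Serpine2 is the gene without overlap, at 0.48, and high-fat replicate 4 of Serpinb8 lies far below the other arrays.

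Some untested probes were above background in 1 diet group only. They were picked for this, and the share of all probes of this kind was not counted. A Serpinb3a probe was well above background on 3 of 4 high-fat arrays and on 0 of 4 control arrays, 1.20-fold higher on high-fat with the dimmer group floored. It shares a run of 23 bases with an untested Serpinb3 probe. For this fold the dimmer group's arrays were each given the probe's value or the lowest signal well above background on that array, whichever was higher. The brighter group kept its measured values, also on arrays not above background, so the fold is no strict lower bound. By the same measure a Serpinb5 probe, above background on 2 high-fat arrays, was 1.17-fold higher on high-fat. Serpina12, which encodes vaspin, an adipokine, had 1 probe above background on 1 control array and 0 high-fat arrays, 1.03-fold higher in control. That fold rests on control values of -7.74, -7.15, -6.47 and -10.04 and does not show a difference.

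All arrays lay on 1 slide in 2 rows, each with 2 arrays of each diet, so each change was also taken within a row. The change had the same sign in both rows in 10 of 15 genes of clades A, C, D and F and 9 of 16 of the other clades, 61.3% of the tested serpins against 57.8% of all genes. Serpina7 was at -0.70 in the first row and -1.80 in the second, Serpina6 at 0.55 and 0.45, Serpina10 at -0.27 and -0.39, Serpina3k at 0.18 and 0.33, and Serpine2 at 0.57 and 0.40. For these 5 genes the shared direction follows from the lack of overlap between the groups and adds nothing to it. Serpinb1a, with overlapping groups, was at -0.67 and -0.49. Serpina3m was at -0.02 and 0.996, and Serpina5 at -0.41 and 0.89. Their changes had opposite signs in the rows, and the difference between rows was not tested. Serpind1 was at 0.14 and 0.74.

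**Figure D5:**
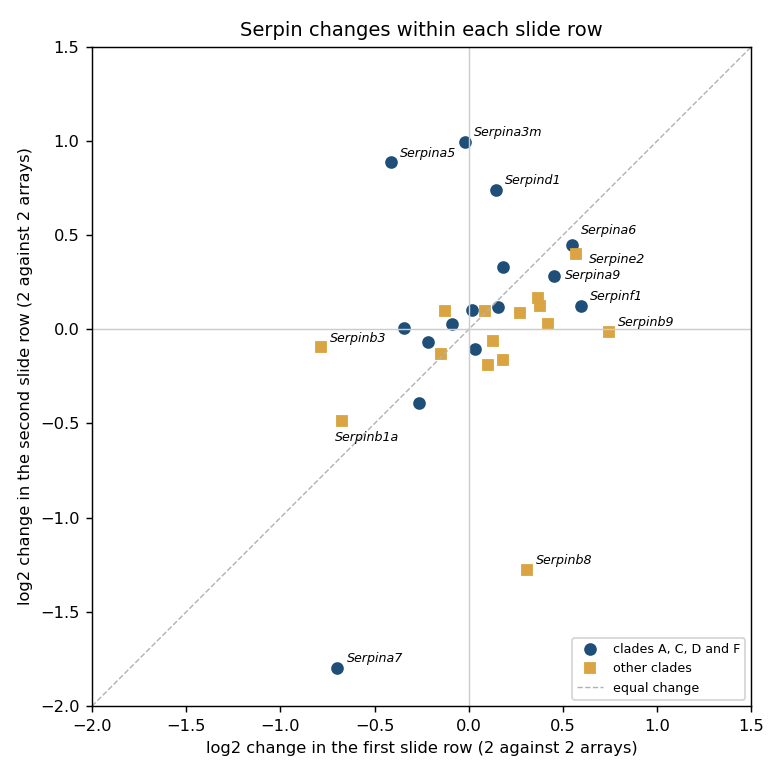
Log2 change from control to high-fat of tested serpin genes within the first slide row (x axis) against the second (y axis), each from 2 against 2 arrays, with the line of equal change dashed. Serpina7 lies at -0.70 and -1.80, Serpina6 and Serpine2 lie above 0 in both rows, and Serpina3m and Serpina5 lie high in the second row only.

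The share of probes well above background on an array was 50.4% to 71.9% in controls and 56.3% to 71.4% on high-fat, lowest in control replicate 1 and high-fat replicate 1. Correlations between arrays across probes were 0.960 to 0.985, and the number of arrays limits the precision. Without the 2 dimmest arrays Serpina7 had a log2 change of -1.30.

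The genes around the serpins were read from lists by role. Of 21 proteases listed as serpin targets 18 were tested, with 1 that rose and 0 that fell, against 0.35% and 0.527% of all genes, and a median log2 change of 0.05. The gene that rose was Mmp2 (1.54, limma adjusted p = 0.015), a metalloprotease that is not an inhibitory target of serpins. The bright targets prothrombin (F2), plasminogen (Plg) and factor XII (F12) had changes of -0.02, 0.10 and 0.20. Of 12 receptors and cofactors, all tested, none passed, with a median of -0.09. Among them vitronectin (Vtn), an adhesive plasma protein, had a change of 0.14, and Lrp1, the receptor that clears serpin complexes, one of 0.22. Of 18 factors of serpin transcription and the hormone and cytokine signals upstream, none passed, with a median of 0.09. Of 15 genes of serpin folding, secretion and quality control in the endoplasmic reticulum 14 were tested and none passed, with a median of -0.02, and the chaperone Hspa5 had a change of -0.20. The unadjusted intervals of F2, Plg, F12, Vtn, Lrp1 and Hspa5 included 0.

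Other genes with the serpin fold go by different names on the array. Angiotensinogen (Agt), the precursor of angiotensin, had a change of 0.31 (95% interval -0.03 to 0.66, limma adjusted p = 0.37) with no overlap between the groups. LOC299282, annotated as a serine protease inhibitor, had one of 0.58 (95% interval -0.07 to 1.23, limma adjusted p = 0.38). The list also held Spin2a, whose array entry is a spindlin and no serpin.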

How the data were processed

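Samples were grouped by their titles. Per the file headers, the deposited intensity values are the spot signals that Agilent Feature Extraction 10.7.3.1 gave for 1-colour arrays, from 500 ng of total RNA per sample per the labels' protocols. The authors' deposited log2 table, whose scaling is not given in the sources used here, served as an alternative. Against the scanner values its columns correlated at 0.999 or more, and their medians were -3.10, -3.21, -3.14 and -3.17 for control and -3.14, -3.20, -3.16 and -3.20 for high-fat replicates 1 to 4. Per array, 98.5% to 98.9% of the table's values lay within 0.05 of the log2 processed signals scaled over all non-control probes. That scaling, another of the alternatives, is therefore close to the deposited table. Higher values mean brighter spots, and the values are not centred per probe.

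Control and outlier spots were left out. The log2 processed signal was set relative to each array's 75th percentile over probes well above background on all 8 arrays, 47.9% of probes, and repeated spots were averaged. Tests covered 31535 probes (well above background on 4 arrays or more) and used limma 3.58.1 (lmFit, then eBayes) under R 4.3.3, high-fat minus control, with adjustment over all of them and a threshold of 0.05. A gene stands for its tested probe with the highest mean. Intervals are unadjusted. With 4 against 4 samples an exact permutation test cannot go below p = 0.0286. The fit was tested on simulated data.

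Of the other clades, 1 tested gene is counted but not reported singly here. The members and the lists of related genes and markers were chosen with earlier results of these data known. Members with a tested probe are described singly if past the threshold, without overlap, changed by a log2 size of at least 0.5, or of clades A, C, D or F; others are named with fewer values. Of the lists, genes past the threshold and the brightest are named, and other genes were chosen after their values were seen. Accessions of 73 of 86 probes (34 of 40 genes) matched GRCr8 RefSeq, used for names only; 4 probes have another current symbol, and 2 probes now named Serpina16 fall outside the rule. Alternatives changed the background correction, scaling, filter, gene summary, variance model, weights, blocks and arrays used.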

Additional observations from a re-analysis of the deposited data

Results flagged for a closer look

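Of 114 sets of 4 values (1 per tested probe and diet group, without the gene not reported singly), 6 held an array far from the other 3, by Dixon's ratio at its 95% critical value, which chance passes in about 1 of 20 sets. In Serpina3k, high-fat replicate 3 was at 6.003 and the others at 5.95. In Serpinb3, high-fat replicate 4 was at -7.26 and the others at -7.68 to -7.64. In Serpinb6b, high-fat replicate 4 was at -1.81 and the others at -1.46 to -1.39. In 1 probe of Serpinb8, high-fat replicate 4 was at -5.90 and the others at -3.91 to -3.84. In Serpinf2, control replicate 4 was at 3.24 and the others at 3.53 to 3.55. In a dimmer Serpini1 probe, high-fat replicate 3 was at -6.26 and the others at -7.45 to -7.38.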

How the results depend on the processing

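With 8 arrays and many serpin values within the spread between replicates, a missed threshold does not show equal levels. Against 163 genes called over the whole array, there were 253 with normexp, 5 with no filter on dim probes, 331 among probes well above background on all 8 arrays, 335 with a trended, robust variance, 227 with array weights, 98 with slide row as a block, 0 in slide row 1 alone, 0 in slide row 2 alone, 14 without the 2 dimmest arrays and 16 to 89 with each array left out. The cause was not tested, beyond the fewer arrays of the last settings. Serpin genes called numbered 1 with normexp, on all 8 arrays and with trended variance, where serpin probes called numbered 3, 3 and 2. Serpina7 was the gene, at -1.18, -1.25 and -1.25, and its change was below 0 under all 22 alternatives, from -1.80 to -0.70 with adjusted p of 0.042 to 0.64 in limma. Serpina6, Serpina10, Serpina3k and Serpine2 kept their direction under all 22. The groups of these genes and of Serpina7 do not overlap, so settings that leave out arrays or take 1 row cannot turn the sign. The variance model and the blocks leave the change itself as it is. The kept direction under those settings therefore adds nothing to the lack of overlap.

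The replicate numbers are shared by the groups, but the labels do not say that they pair samples. Deviations of same-numbered samples correlated at -0.12, 0.26, 0.23 and 0.012, and 2 of 8 samples correlated best with their own number. With the replicate block, 1 gene was called over the whole array, 0 serpins, and 3 serpin genes instead of 6 had an unadjusted p under 0.05, against 1 in slide row 1 alone and 4 to 7 with each array left out.

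The median over all genes was -0.050 with normexp and -0.041 with no filter. The collagen list was at -0.060 in row 1 alone and the transcription list at -0.11 in row 2 alone. Signs turned in the following. With the mean of all probes, Serpina1 was at 0.013, Serpina11 at -0.028, Serpinc1 at 0.046 and Serpinf2 at 0.038. With normexp, Serpina9 was at -0.048, Serpinb2 at -0.031 and Serpinb5 at -0.0018. With scaling over all probes Serpinb2 was at -0.0040, and with array weights Serpinb2 was at -0.13 and Serping1 at -0.030. In row 1 alone Serpina3m was at -0.021, Serpina5 at -0.41, Serpinb7 at 0.10, Serpinb8 at 0.31 and Serpinf2 at 0.035. In row 2 alone Serpina1 was at 0.027, Serpinb12 at 0.095, Serpinb2 at -0.16, Serpinb9 at -0.012, Serpinc1 at 0.0094 and Serping1 at -0.060. Without the 2 dimmest arrays Serpina11 was at -0.013, Serpinb12 at 0.040, Serpinb2 at -0.21, Serping1 at -0.090 and Serpini1 at 0.042. With each array left out, Serpina1 ranged from -0.086 to 0.066, Serpina4 from -0.012 to 0.12, Serpinb12 from -0.070 to 0.037, Serpinb2 from -0.22 to 0.23, Serpinb3a from -0.011 to 0.47, Serpinb7 from -0.34 to 0.10, Serpinb8 from -0.71 to 0.022, Serpinf2 from -0.14 to 0.062, Serping1 from -0.033 to 0.087 and Serpini1 from -0.29 to 0.0065. The cause was not tested.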

Other observations

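Secreted protease inhibitors outside the serpin family were split in direction. Of 21 listed, 20 were tested, none passed in limma, the median log2 change was -0.14, and in 7 (against 11.1% of all genes) the groups did not overlap; these were chosen after their values were seen. Spink3, a trypsin inhibitor, had a change of -1.30 (95% interval -2.07 to -0.52, limma adjusted p = 0.13), Spint1, an inhibitor of hepatocyte growth factor activator, -0.80 (adjusted p = 0.062 in limma), Timp2, a metalloprotease inhibitor, -0.67 (adjusted p = 0.089 in limma) and Tfpi, the tissue factor pathway inhibitor, -0.27. The related macroglobulins Mug2 and A1i3, broad protease traps of rodent plasma, had changes of 0.68 and 0.33, and Itih1, a heavy chain of the inter-alpha-trypsin inhibitor, 0.30. The listed macroglobulins did not move together. With overlapping groups, A2m had a change of -0.76 (95% interval -1.51 to -0.01, limma adjusted p = 0.32), Mug1 0.06 and Pzp 0.16. A1i3 was among the 3 brightest of the list, and the other 2, Ambp and Itih4, had changes of -0.07 and -0.09 with overlapping groups.

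Among the genes upstream of serpin transcription, the growth hormone receptor (Ghr) and its target Igf1 had changes of 0.61 and 0.39 (limma adjusted p = 0.17 and adjusted p = 0.18), both without overlap between the groups. They were the 2 of 18 listed genes without overlap, a share like that of all genes (11.1%). Of the same list, Stat5a and Stat5b had changes of -0.58 and -0.21 with overlapping groups. Socs2 and Cish had changes of 1.38 and 1.10, with opposite signs in the 2 slide rows. Erythroid markers, 4 of 5 tested, had a median change of 1.09, and none passed. Of the 4, 3 had a change above 0 and Slc4a1 had one of -0.29. Their summed level, set mostly by the globins Hba-a2 and Hbb, was 4.80 to 6.17 in control and 6.16 to 6.84 in high-fat samples.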
